A study of Mus musculus with 18 samples.

Results

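Immediate early genes are switched on within minutes of a stimulus, without new protein synthesis, and their transcripts are short-lived. The genes followed here, found by exact match of the symbol, were Fos, Fosb, Jun, Junb, Egr1, Nr4a1, Arc, Ier2, Npas4 and Atf3, which are 10 of the 34800 genes left in the count tables after removal of ribosomal RNA genes. The symbols are known members of the class, and the rule used no measured value, but it was written with earlier results of these data known. All 10 genes passed the expression filter and entered the tests with 16183 genes in total.

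The retinas were taken from males of both genotypes, with and without treatment. WT animals were C57BL/6J mice. Akita animals were heterozygous for the Akita missense allele of the insulin gene Ins2, which makes them diabetic early in life. The mutation acts in pancreatic beta cells, so the retina is exposed to the diabetes and not to a retinal transgene. NACET is an esterified form of N-acetylcysteine that enters cells more easily. Treated mice drank a 0.33 mg/mL solution of it, equal to 50 mg/kg daily, between weeks 4 and 24 of age, and the other mice drank plain water. The 18 poly(A) libraries, all collected at the end of week 24, fell into WT (n = 3), WT + NACET (n = 6), Akita (n = 4) and Akita + NACET (n = 5). Levels are given as CPM, a gene's counts relative to the total of its library after TMM scaling, and the libraries held between 11495596 and 17814479 counts in genes. The labels do not state that each library came from a separate mouse, so that p-values measure the spread between libraries.

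The 10 genes have different roles. Fos, Fosb, Jun and Junb encode subunits of AP-1, a dimeric transcription factor. Egr1 is a zinc finger transcription factor, Nr4a1 an orphan nuclear receptor, and Npas4 a neuronal transcription factor that responds to calcium entry. Atf3 is a stress-responsive factor of the ATF and CREB family, Arc acts at synapses on glutamate receptor trafficking, and Ier2 encodes a small nuclear protein. In neurons these genes respond to electrical activity, growth factors and injury through kinases that act on CREB and on the serum response factor, and in the retina light and stress induce several of them.

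The promoters of 5 members are shown because CREB is a shared regulator of the family. Atf3, Nr4a1 and Npas4 are the members with called differences described further on that the sequence table holds, and Fos and Junb stand for the AP-1 subunits that varied with Nr4a1 between libraries. RefSeq sequences on GRCm38.p6, from 250 bases before to 50 bases after the start of transcription, were matched by symbol for 7 of the 10 members (Fos, Fosb, Jun, Junb, Nr4a1, Npas4 and Atf3). They run 5′ to 3′ along the gene, and capitals mark the core of the cyclic AMP response element (CRE), the letters TGACG on either strand (CGTCA when read on the other strand). The windows are chr12:85473640-85473939 on the plus strand for Fos, chr8:84978699-84978998 on the minus strand for Junb, chr15:101266596-101266895 on the plus strand for Nr4a1, chr19:4989922-4990221 on the minus strand for Npas4 and chr1:191183284-191183583 on the minus strand for Atf3.
Fos: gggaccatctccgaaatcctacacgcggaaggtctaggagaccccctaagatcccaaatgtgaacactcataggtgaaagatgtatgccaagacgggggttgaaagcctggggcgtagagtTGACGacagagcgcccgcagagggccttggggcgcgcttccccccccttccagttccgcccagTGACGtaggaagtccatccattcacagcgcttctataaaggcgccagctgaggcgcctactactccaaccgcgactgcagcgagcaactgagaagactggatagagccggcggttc
Junb: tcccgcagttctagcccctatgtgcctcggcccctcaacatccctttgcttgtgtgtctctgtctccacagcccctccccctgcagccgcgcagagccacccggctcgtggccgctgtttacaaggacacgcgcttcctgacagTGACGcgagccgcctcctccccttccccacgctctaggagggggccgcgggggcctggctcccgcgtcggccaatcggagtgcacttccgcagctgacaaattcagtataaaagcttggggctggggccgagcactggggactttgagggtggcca
Nr4a1: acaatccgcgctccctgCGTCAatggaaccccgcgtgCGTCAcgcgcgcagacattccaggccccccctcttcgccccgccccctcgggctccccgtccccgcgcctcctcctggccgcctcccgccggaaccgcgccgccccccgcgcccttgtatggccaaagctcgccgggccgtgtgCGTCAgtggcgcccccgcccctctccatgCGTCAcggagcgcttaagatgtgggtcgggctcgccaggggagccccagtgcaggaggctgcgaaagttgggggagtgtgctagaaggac
Npas4: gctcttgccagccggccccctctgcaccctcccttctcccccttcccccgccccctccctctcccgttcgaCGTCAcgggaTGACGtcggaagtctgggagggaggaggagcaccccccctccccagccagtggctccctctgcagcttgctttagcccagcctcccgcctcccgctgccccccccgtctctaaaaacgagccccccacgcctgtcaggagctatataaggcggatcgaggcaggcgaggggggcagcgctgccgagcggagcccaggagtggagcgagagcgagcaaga
Atf3: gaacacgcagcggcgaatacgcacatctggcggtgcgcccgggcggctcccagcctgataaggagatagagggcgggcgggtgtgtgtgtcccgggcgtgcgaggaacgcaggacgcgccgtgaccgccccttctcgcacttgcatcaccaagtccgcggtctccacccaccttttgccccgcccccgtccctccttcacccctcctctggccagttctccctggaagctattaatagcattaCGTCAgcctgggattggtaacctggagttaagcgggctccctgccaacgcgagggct
The CRE core stood in 6 of the 7 member promoters, against 20.8% of the 32851 promoters in the RefSeq table. Jun was the exception. Nr4a1 held 4 copies, Fos and Npas4 2 each, and Junb, Fosb and Atf3 1 each. The full CRE, TGACGTCA, which contains the core, was in 0 of the 7 windows and in 1.79% of all promoters. The letters TGAGTCA or TGACTCA, bound by AP-1, were in 0 of 7 and in 5.20% of all, and the CArG box of serum response factor was in 0 of 7 and in 1.63%. TATAAA was in 2 of 7, Fos and Junb, and in 13.6% of all. These are matches of letters within 300 bases and say nothing about sites outside the window.

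In mm9 the coordinates are those of Fos (chr12:86814840-86818223), Fosb (chr7:19888070-19895394), Jun (chr4:94715725-94718913), Junb (chr8:87500811-87502617), Nr4a1 (chr15:101097277-101105223), Arc (chr15:74499513-74503000), Ier2 (chr8:87185230-87186751), Npas4 (chr19:4984355-4989971) and Atf3 (chr1:192994175-193007219), while Egr1 lies on chromosome 18. All 10 are annotated as protein coding. Jun shares exon bases with BC042782 and Egr1 with Gm17507, both on the opposite strand, and the counting ignored strand, so that reads from the shared bases cannot be assigned to one of the pair.

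Per kilobase of exon, the mean level over the 18 libraries ran from 28.8 CPM per kb for Ier2 to 0.543 CPM per kb for Fosb. Junb (23.0), Jun (17.7), Fos (12.5), Egr1 (11.8), Atf3 (9.88) and Nr4a1 (8.53) followed Ier2, and Arc (1.24) and Npas4 (0.663) came before Fosb. The step from Nr4a1 to Arc was the widest on the log2 scale, 2.49 ± 0.87 (SD over libraries), and Nr4a1 was above Arc in 18 of 18 libraries. Arc was above Npas4 in 17 of 18, by 1.06 ± 0.76. All other neighbours in this order differed by less than the SD of their difference. Egr1 was above Atf3 in 9 of 18 libraries and Fos above Egr1 in 11 of 18. The 3 lowest genes rested on few reads, between 5 and 65 for Npas4, 14 and 47 for Fosb and 34 and 89 for Arc, so that counting error is a larger part of their spread.

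All 10 genes had their lowest group mean in WT + NACET. The share of all genes with their lowest mean there is not given here. For Arc the means were close, at 3.49 ± 0.77 CPM in WT + NACET and 3.64 ± 0.40 in WT (SD). Those of Fosb were 1.76 ± 0.49 and 2.22 ± 0.31, and for both genes the libraries of the 2 groups overlapped. The highest mean was in Akita for 6 of them (Fos, Jun, Junb, Egr1, Nr4a1 and Ier2) and in Akita + NACET for the other 4 (Fosb, Arc, Npas4 and Atf3). In the plot of CPM by library the Akita libraries of Fos, Egr1, Nr4a1, Junb and Npas4 lie farther apart than those of the other groups, while for Atf3 the SD of log2 CPM was 0.33 in Akita, 0.65 in WT and 0.67 in Akita + NACET.

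**Figure D1:**
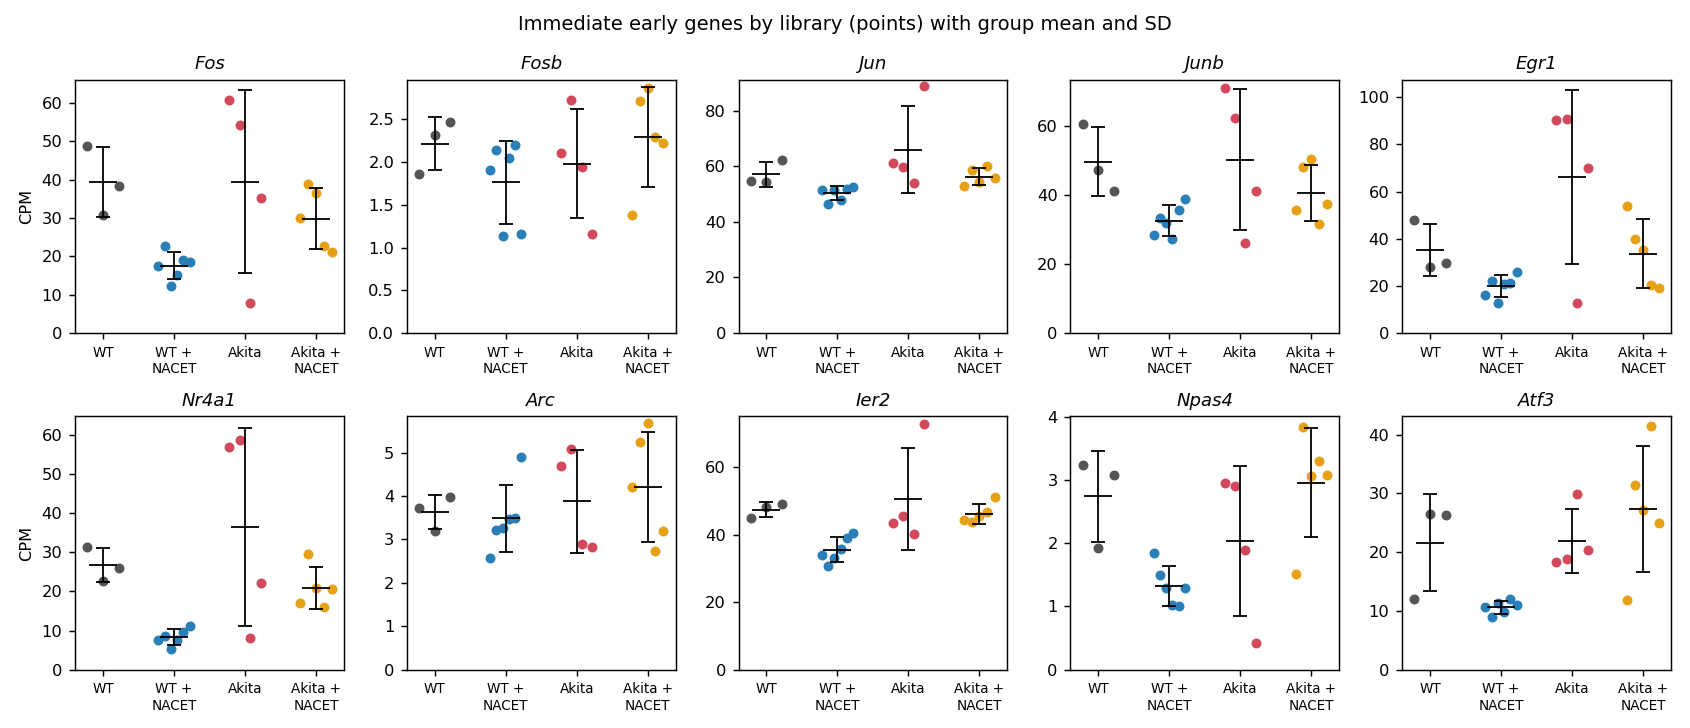
Level of each of the 10 immediate early genes in CPM (linear axis from 0, scaled per gene) by group. Points are libraries, and the bars give the group mean and SD. For Nr4a1 the 6 WT + NACET libraries lie between 5.31 and 11.3 CPM, below the 3 WT libraries (22.6 to 31.3), and the 4 Akita libraries spread from 8.04 to 58.7.

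WT + NACET vs WT asked what the compound did in the non-diabetic retina. Nr4a1 was at 31.3, 22.6 and 26.1 CPM in WT replicates 1 to 3, and at 5.31, 8.12 and 11.3 CPM (lowest, median, highest of 6) in WT + NACET. The groups did not overlap, with means of 26.7 ± 4.4 and 8.31 ± 2.02 CPM (SD). The log2 fold change was −1.68 ± 0.43 (SE), with an edgeR adjusted p of 0.0630 over all tested genes.

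Fos was at 48.8, 30.7 and 38.4 CPM in WT, and at 12.4, 18.02 and 22.7 CPM (lowest, median, highest) in WT + NACET. Every treated library was below every untreated one. The log2 fold change was −1.16 (95% interval −2.04 to −0.29, edgeR adjusted p = 0.147). Atf3 was at 12.1, 26.5 and 26.3 CPM in WT. In WT + NACET it ran from 8.93 through a median of 10.9 to 12.003 CPM, so that WT replicate 1 lay just above the treated range while the other two WT libraries lay far above it. Its log2 fold change was −1.02 (−1.63 to −0.41, edgeR adjusted p = 0.0801).

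Npas4 was at 3.23, 1.92 and 3.07 CPM in WT, against 1.01, 1.29 and 1.84 CPM (lowest, median, highest) in WT + NACET. Its log2 fold change was −1.05, with an interval of −1.83 to −0.28 and an edgeR adjusted p of 0.137. Junb (−0.61), Ier2 (−0.42), Egr1 (−0.83) and Jun (−0.19) also had WT + NACET libraries that were all below the WT libraries, with edgeR adjusted p of 0.173 for Junb, 0.112 for Ier2 and 0.342 for Egr1. The remaining pair overlapped between the groups, with log2 fold changes of −0.32 for Fosb and −0.06 for Arc.

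In this comparison 0 of 10 genes were called by edgeR at an adjusted p of at most 0.05, where 1.48% of all tested genes (240 of 16183) were called. At an unadjusted p under 0.05 there were 6 (Fos, Junb, Nr4a1, Ier2, Npas4 and Atf3), where 19.5% of all genes were. All 10 fold changes were below 0, with a median of −0.72 against −0.01 over all genes. In 8 of the 10 the 2 groups did not overlap, where 11.5% of all genes did not overlap in either direction. Some of these gaps were small. For Npas4 the lowest WT library was at 1.92 CPM (24 counts) and the highest WT + NACET library at 1.84 CPM (30 counts). The same 2 values were 12.06 and 12.003 CPM for Atf3, and 54.2 and 52.4 CPM for Jun. DESeq2 on all groups called 2 (Nr4a1 and Atf3) and 717 genes in all, and DESeq2 on the 2 groups alone called 7 and 943 in all. With edgeR on the 2 groups alone 5 were called (Fos, Junb, Nr4a1, Ier2 and Atf3), with 269 in all. The fold changes of these fits lay close to those given above, while the SE of Nr4a1, for example, was 0.18 in the edgeR fit without the Akita groups and 0.43 with them. Without Akita replicate 3 the 4-group fit called Fos (adjusted p = 0.0119) and Nr4a1 (0.00411), without Akita replicate 4 it called Ier2 (0.0173) and Npas4 (0.0449), and without Akita + NACET replicate 1 it called Atf3 (0.0214). None of these 3 libraries belongs to either group compared.

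**Figure D2:**
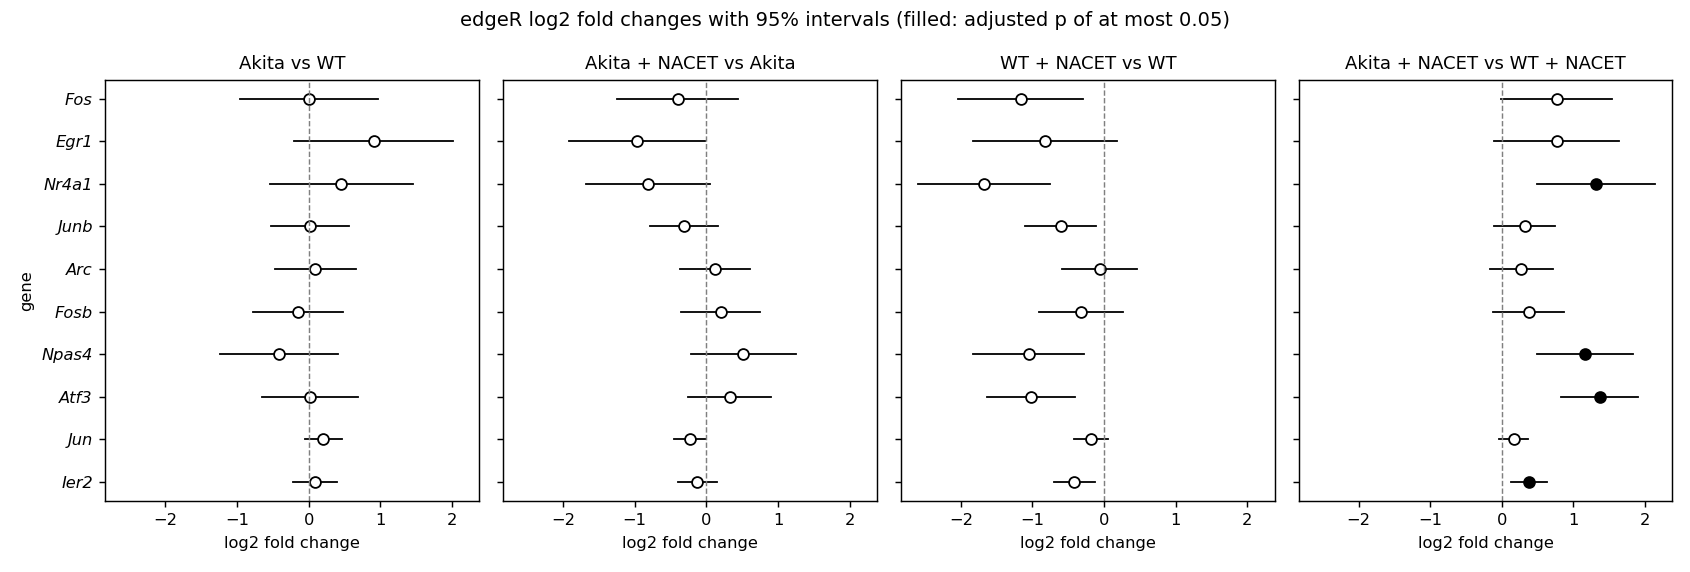
Log2 fold change of each gene in 4 comparisons (x axis, log2 units), with 95% intervals as lines. Filled points have an edgeR adjusted p of at most 0.05. Only Nr4a1, Npas4, Atf3 and Ier2 in Akita + NACET vs WT + NACET are filled, while all 10 points of WT + NACET vs WT lie below 0.

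Akita + NACET vs WT + NACET compared the genotypes under treatment. Atf3, Npas4, Nr4a1 and Ier2 rose in Akita + NACET, by 1.37 ± 0.25, 1.16 ± 0.32, 1.32 ± 0.39 and 0.38 ± 0.12 on the log2 scale (SE). Their edgeR adjusted p-values were 0.00385, 0.0244, 0.0364 and 0.0391. These 4 of 10 stood against 13.3% of all tested genes, called in either direction, and all 10 fold changes were above 0 with a median of 0.57 against 0.00 over all genes. The comparison shares its WT + NACET libraries with the one before, so that the 2 sets of values are not independent.

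Atf3 was at 11.9, 31.4, 27.1, 41.4 and 25.0 CPM in Akita + NACET replicates 1 to 5. Replicate 1 lay within the WT + NACET range and the other 4 lay above its upper end. Npas4 was at 1.52, 3.83, 3.06, 3.29 and 3.07 CPM, and again replicate 1 alone lay within the WT + NACET range. Nr4a1 was at 17.1, 29.5, 20.8, 16.03 and 20.6 CPM, all above the highest WT + NACET library (11.3). Ier2 was at 44.3, 43.7, 45.4, 46.5 and 51.1 CPM, above a WT + NACET range of 30.7 to 40.4 CPM, so that its small fold change went with small spread in both groups.

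Jun was the other gene without overlap in this comparison, at 52.9 to 60.03 CPM against 46.2 to 52.4 CPM, with a log2 fold change of 0.17 (interval −0.04 to 0.37). Groups without overlap were thus found in 3 of 10 genes, where 8.01% of all genes had none in either direction. Fos (0.77, interval −0.01 to 1.55), Egr1 (0.77, −0.11 to 1.64), Fosb (0.37), Junb (0.32) and Arc (0.27) did not pass the test. In fits on the 2 groups alone, DESeq2 called Fos (adjusted p = 0.000507) and Egr1 (0.0477) beside the 4, among 3032 genes in all, and edgeR called Fos (0.0140), among 2267. The call for Atf3 held in all 28 alternative fits. Nr4a1 lost it without the filter on low counts (adjusted p = 0.0680) and without any 1 of 7 libraries, Ier2 without any 1 of 8 and Npas4 without any 1 of 5.

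The share of reads outside annotated exons differed between the same groups, at 9.55% to 16.5% in WT + NACET and 14.3% to 19.8% in Akita + NACET, with 14.9% to 17.1% in WT and 9.67% to 13.3% in Akita. With this share as a covariate 1 of the 4 calls remained, that of Atf3. The log2 fold change was then 0.95 for Nr4a1 (edgeR adjusted p = 0.383), 0.84 for Npas4 (0.322) and 0.48 for Ier2 (0.118), and 194 genes of all tested were called in place of 2148. In WT + NACET vs WT the covariate took the log2 fold change of Nr4a1 to −1.32 (adjusted p = 0.429).

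The interaction of genotype with NACET asked whether the treatment effect differed between genotypes. Npas4 and Atf3 were called, with an interaction of 1.57 ± 0.51 and 1.35 ± 0.40 on the log2 scale (SE) and edgeR adjusted p-values of 0.0361 and 0.0279. For Npas4 the treatment effect was −1.05 in WT and 0.52 in Akita, and for Atf3 it was −1.02 in WT and 0.33 in Akita, each positive in Akita without passing the test there. These 2 of 10 genes stood against 20.3% of all tested genes called. Nr4a1 (0.87, interval −0.41 to 2.15), Fos (0.76, −0.47 to 1.99) and Ier2 (0.29, −0.11 to 0.69) did not pass. The interaction of Egr1 was −0.14 with an interval of −1.55 to 1.26, wide enough to hold changes of over 1 on the log2 scale in either direction. With the share outside exons as covariate neither call held. The interaction was then smaller for Npas4, at 0.85 (edgeR adjusted p = 0.742). For Atf3 it was larger, at 1.86, with an SE of 0.60 (adjusted p = 0.398). The call for Npas4 was lost without any 1 of 9 libraries and that for Atf3 without any 1 of 4, and without WT replicate 3 neither held. Rod marker genes moved with the interaction, with 5 of 5 called lower and a median of −0.87, and their part in it was not tested.

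Akita vs WT addressed the effect of diabetes. Of the 10 genes 0 were called by edgeR, where 7.64% of all genes were, and 0 had an unadjusted p under 0.05, where 27.0% of all genes did. DESeq2 called 0 as well. The median log2 fold change was 0.05 against −0.01 over all genes. Egr1 had the greatest fold change of the 10, 0.91, with an interval from −0.20 to 2.02. Jun had the narrowest interval, from −0.05 to 0.46 around 0.21.

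Akita + NACET vs Akita asked what the compound did in the diabetic retina. By edgeR 0 of 10 genes were called, where 9.65% of all genes were, and DESeq2 called 0. At an unadjusted p under 0.05, where 29.0% of all genes were, there were 2, Jun (−0.23, interval −0.45 to −0.0011) and Egr1 (−0.97, −1.92 to −0.02). Of the fold changes 4 were above 0, those of Fosb (0.20), Arc (0.11), Npas4 (0.52) and Atf3 (0.33). In Akita + NACET vs WT 0 of 10 genes were called, where 0.00618% of all genes (1 of 16183) were, with 0 members at an unadjusted p under 0.05 and 0 by DESeq2. There the median was −0.03, and the widest interval was that of Egr1, from −1.11 to 0.99.

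For Fos, Egr1, Nr4a1 and Junb the 4 Akita libraries differed more among themselves than those of any other group. Fos was at 60.7, 54.4, 7.79 and 35.1 CPM in Akita replicates 1 to 4, a 7.80-fold range, against 1.84-fold in Akita + NACET, 1.83-fold in WT + NACET and 1.59-fold in WT. Egr1 was at 90.5, 90.7, 12.6 and 70.1 CPM. Nr4a1 was at 56.9, 58.7, 8.04 and 22.2 CPM, and Junb at 71.0, 62.3, 26.0 and 41.1 CPM. In all 4 genes replicates 1 and 2 were the highest libraries of the group and replicate 3 the lowest. The share of reads outside exons was likewise highest in replicates 1 and 2 (13.3% and 12.9%). It was 9.67% in replicate 3 and 10.2% in replicate 4. Over all genes, the chi-square per gene of counts was 7.53 between replicates 1 and 2 and at least 15.96 in the other Akita pairs. The Akita libraries thus differed in more than these genes, and the part of this in their spread was not tested.

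Replicate 3 did not stand low for every gene. It had the highest Atf3 of its group (29.9 CPM, against 18.4, 18.8 and 20.3 in replicates 1, 2 and 4), and its Npas4, 1.88 CPM, lay between the others. Replicate 4 had the highest Jun and Ier2 of all 18 libraries, at 88.9 and 72.9 CPM, and the lowest Npas4, at 0.414 CPM from 5 counts. Jun in the other Akita libraries was at 53.9 to 61.1 CPM and Ier2 at 40.3 to 45.6 CPM.

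Several calls changed when Akita libraries were left out. Without Akita replicate 3, Egr1 was called in Akita vs WT, with a log2 fold change of 1.26 (edgeR adjusted p = 0.0419), and in Akita + NACET vs Akita, with −1.32 (0.0265), where Nr4a1 was called too, with −1.15 (0.0294). Fos was then called in Akita + NACET vs WT + NACET (0.77, adjusted p = 0.0167). Without replicates 1 and 2 together, an alternative chosen after the values were seen, the interaction was called for Nr4a1 (2.15, edgeR adjusted p = 0.00734) and Junb (0.88, 0.0342) and for Npas4, and no longer for Atf3. The labels give no ground to set any of these libraries aside.

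**Figure D3:**
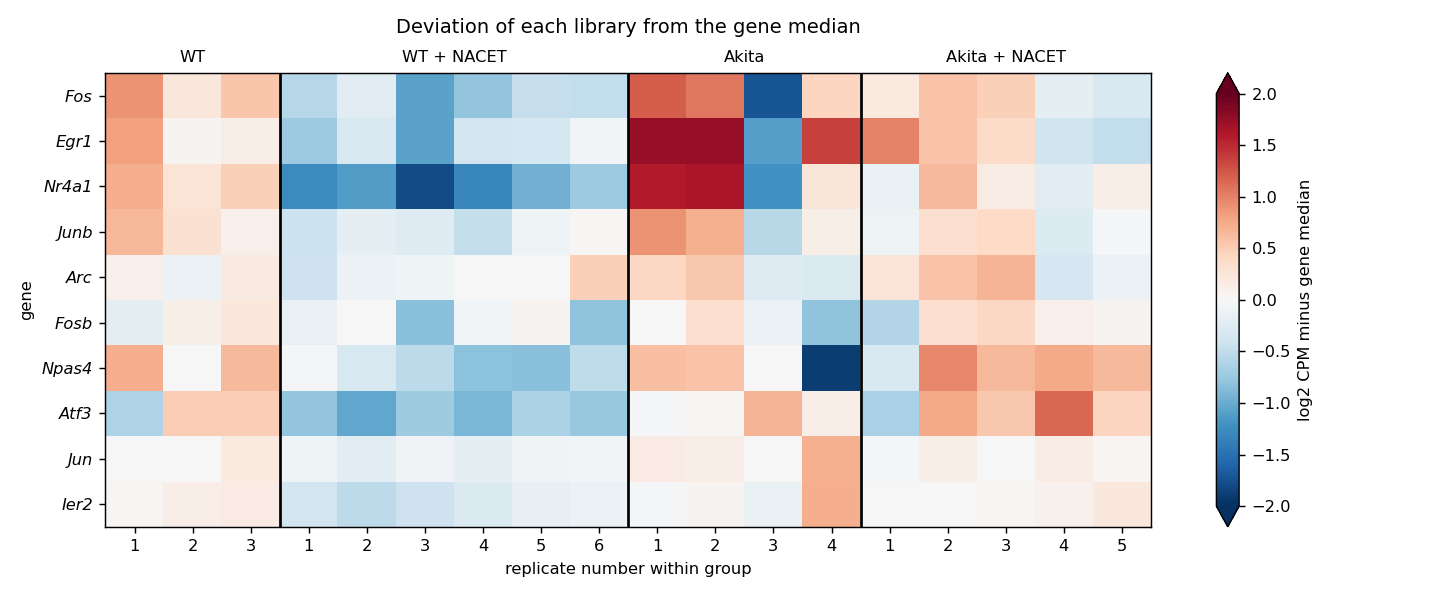
Deviation of each library from the gene's median over 18 libraries, in log2 CPM (colour, from blue below to red above, cut at 2 either way). Rows are genes and columns are libraries by group and replicate. The WT + NACET columns are mostly blue, and Akita replicates 1 and 2 are the reverse of replicate 3 in the rows of Fos, Egr1, Nr4a1 and Junb.

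Within groups, the SD of log2 CPM was 0.77 for Egr1, 0.70 for Fos, 0.69 for Nr4a1 and 0.65 for Npas4, against a median of 0.23 over all tested genes. In Akita alone it was 1.37 for Egr1, 1.36 for Fos, 1.35 for Nr4a1 and 1.18 for Npas4. In the other groups it ran from 0.36 to 0.64 for Egr1 and 0.30 to 0.39 for Fos. For Nr4a1 it ran there from 0.23 to 0.36, and for Npas4 from 0.30 to 0.49. Egr1 stood at the 97.0 percentile of all genes. Jun (0.16) and Ier2 (0.21) were below the median of all genes. Fosb (0.40) and Npas4, the least abundant members, were above it, with counting error in their spread. The order changed among genes of similar mean level, within 0.5 on the log2 scale. There Jun stood at the 61.2 percentile, Ier2 at the 77.5, Fosb at the 52.8, Npas4 at the 91.4 and Egr1 at the 99.4.

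After subtraction of group means, pairs of genes were compared across the 18 libraries by Pearson and Spearman correlation of log2 CPM, with 100000 permutations of libraries within groups, over 45 pairs. The libraries share their group, depth and composition, so that the values describe how the genes moved together. The share of reads outside exons, which also differed between the Akita libraries, was not taken out. Fos and Egr1 had r = 0.93 (permutation p = 0.00045, Benjamini-Hochberg adjusted over the pairs 0.0084) and rho = 0.87 (p = 0.00071, adjusted 0.016). Without the 2 libraries farthest from the median of Fos, Akita replicates 1 and 3, r was 0.82. Fos and Nr4a1 had r = 0.92 (permutation p = 0.00045, adjusted 0.0084) and rho = 0.81 (p = 0.00026, adjusted 0.012), and r was 0.77 without the same 2 libraries. Junb and Nr4a1 had r = 0.89 (permutation p = 0.00056, adjusted 0.0084) and rho = 0.82 (p = 0.0020, adjusted 0.023), with r = 0.75 without these 2.

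Jun and Ier2 formed another pair, with r = 0.86 (permutation p = 0.0071, adjusted 0.038) and rho = 0.70 (p = 0.014, adjusted 0.058). Their r was 0.52 without Akita replicates 3 and 4, so that much of the relation rested on these libraries. Egr1 and Atf3 went in opposite directions, with r = −0.62 (permutation p = 0.0059, adjusted 0.038) and rho = −0.69 (p = 0.0099, adjusted 0.045). Without Akita replicate 3 and Akita + NACET replicate 5 their r was −0.69. Fos and Atf3 did not pass, with r = −0.42 (permutation p = 0.046, adjusted 0.15) and rho = −0.52 (p = 0.045, adjusted 0.15).

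**Figure D4:**
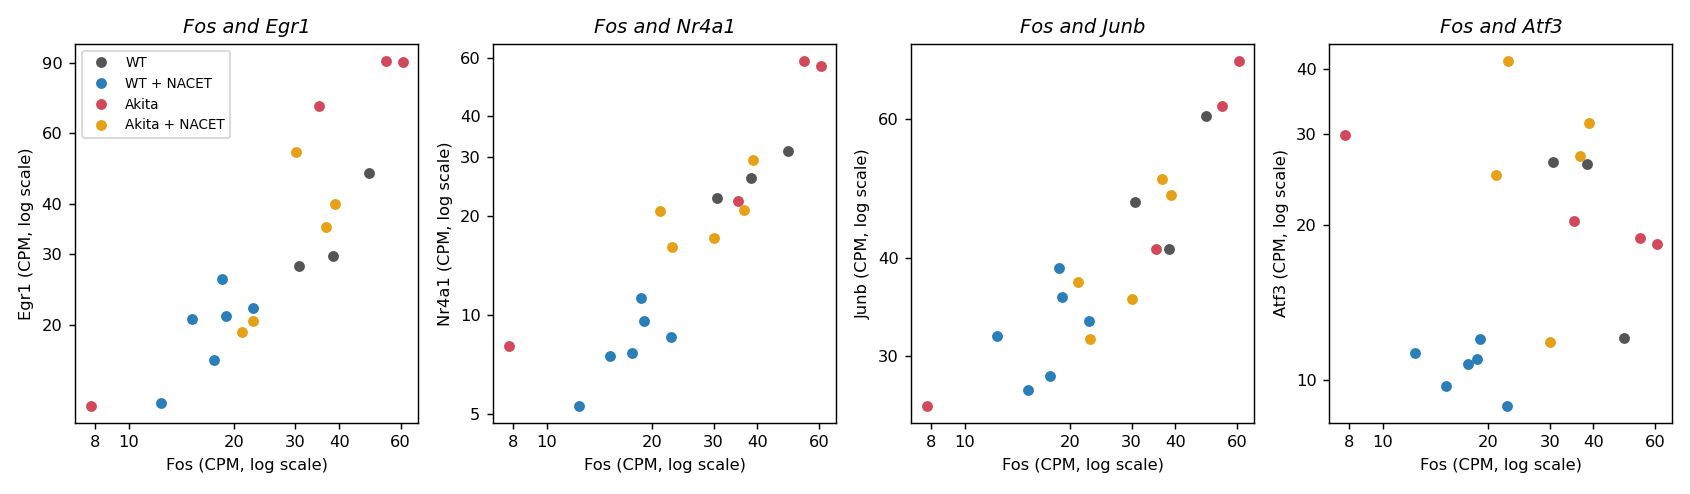
Level of Egr1, Nr4a1, Junb and Atf3 (y axis) against that of Fos (x axis) in each library, in CPM on log axes, coloured by group. Egr1, Nr4a1 and Junb climb with Fos from Akita replicate 3 (Fos 7.79 CPM) to Akita replicate 1 (60.7 CPM), while Atf3 is at 29.9 CPM in the former and 18.4 CPM in the latter.

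The genes whose pattern over the 18 libraries was most like the mean profile of the members, among 14462 others with at least 1 CPM on average, were led by Dusp1 (r = 0.90) and Egr4 (0.88). Zfp27 (0.85), Capn10 (0.84), Gabrr3 (0.82), Cbx7 (0.81), Plxnd1 (0.80), Zfp563 (0.80), Tmem181b-ps (0.80) and Ippk (0.79) followed. With group means subtracted the closest were 1700009P17Rik (0.86), Egr4 (0.84) and Dleu7 (0.81), then 2810021J22Rik, Tmem203, Tmem186, 5930412G12Rik, Gm10307, Zfp655 and Srsf7. These values are a ranking and carry no test.

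Dusp1 encodes a phosphatase that switches off MAP kinases and is itself induced as an immediate early gene. It was at 68.3, 56.0 and 50.2 CPM in WT and at 21.2, 27.6 and 34.6 CPM (lowest, median, highest) in WT + NACET. The groups did not overlap, and Dusp1 fell by 1.07 on the log2 scale (SE 0.17, edgeR adjusted p = 0.0023). In Akita + NACET it was at 49.5, 65.4, 63.4, 45.6 and 46.8 CPM, higher than WT + NACET by 0.96 (SE 0.15, adjusted p = 0.000786), and its interaction was 1.14 (adjusted p = 0.00514). In Akita it was at 60.1, 59.8, 39.6 and 45.8 CPM, with replicate 3 again the lowest.

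Egr4, a relative of Egr1, was at 3.72, 5.27, 0.44 and 0.83 CPM in Akita replicates 1 to 4. Replicates 1 and 2 were the highest for both genes, but replicate 4 was low for Egr4 and at 70.1 CPM for Egr1. Dusp1 and Egr4 are described here because they led the ranking by likeness, so that their likeness to the members was fixed by the choice. Egr4 passed no test, with a log2 fold change of −1.24 in WT + NACET vs WT (edgeR adjusted p = 0.293).

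**Figure D5:**
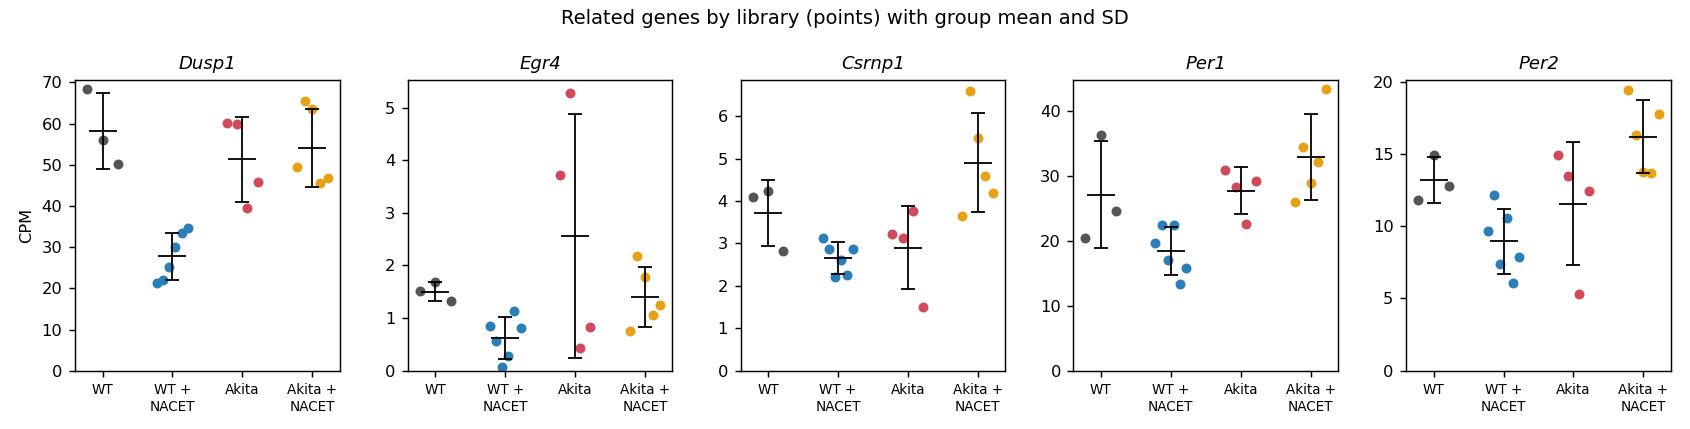
Level of Dusp1, Egr4, Csrnp1, Per1 and Per2 in CPM (linear axis from 0, scaled per gene) by group, with points for libraries and bars for the group mean and SD. The 6 WT + NACET libraries of Dusp1 lie between 21.2 and 34.6 CPM, below all 12 other libraries.

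Other genes of the pathway were followed in lists set by function. Of 20 tested transcription factors of the early response, Cebpd rose in WT + NACET vs WT (0.96, edgeR adjusted p = 0.0306) and 0 fell, where 1.48% of all genes were called. Between the treated genotypes, Csrnp1 (0.89, adjusted p = 0.00932), Klf2 (1.92, 0.0156) and Klf4 (2.23, 0.0295) rose and Cebpd fell (−0.98, 0.00283). There 13.3% of all genes were called in either direction. Klf2 and Klf4 were rare, with means of 0.380 and 0.114 CPM in WT + NACET, so that their fold changes rest on few reads. Klf2 (1.83, 0.0442) and Csrnp1 (0.74, 0.0451) also rose in Akita + NACET vs Akita, where 9.65% of all genes were called. Ier3 rose in Akita vs WT (0.51, 0.0442), where 7.64% of all genes were called. The list's median was −0.26 in WT + NACET vs WT and 0.21 in Akita + NACET vs WT + NACET, against medians near 0 for all genes. Cell type markers had medians in WT + NACET vs WT of −0.24 for bipolar, −0.29 for amacrine and −0.05 for ganglion cells. For rods and cones the medians were 0.27 and 0.22. The part of cell types in the list medians was not tested.

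Among 19 feedback inhibitors, 1 fell in WT + NACET vs WT, Dusp1, and 0 rose, where 1.48% of all genes were called. From WT + NACET to Akita + NACET 3 of 19 rose, near the 13.3% of all genes called in either direction. These were Dusp1, Zfp36l2 (0.59, edgeR adjusted p = 0.0161), an mRNA decay factor, and Spry4 (0.54, 0.0235), an inhibitor of receptor tyrosine kinase signalling. Nab2, a corepressor that binds Egr proteins, fell in Akita vs WT by 1.17 on the log2 scale (adjusted p = 0.0117) and rose in Akita + NACET vs Akita by 0.86 (0.0161). Spry4 fell by 0.78 in the former (0.0235) and rose by 0.74 in the latter (0.0206). Nab2 and Spry4 thus passed the test in the 2 comparisons that share the Akita libraries, where 0 members did. These 2 of 19 genes were near the 7.64% and 9.65% of all genes called there.

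Of 18 downstream effector genes, 2 rose, near the 13.3% of all genes called, in Akita + NACET vs WT + NACET, Per1 (0.84, edgeR adjusted p = 0.00385) and Errfi1 (0.24, 0.0269), and 0 fell. In WT + NACET vs WT the list's median was −0.20. Ctgf fell (−1.10, 0.0235) and Arl4d rose (0.50, 0.0461) in Akita vs WT, where 7.64% of all genes were called. The kinase gene Plk3 rose in Akita + NACET vs Akita (1.04, 0.0281), where 9.65% of all genes were called. The neuronal activity genes Bdnf and Homer1 passed in no comparison of groups, with adjusted p of 0.0929 for Bdnf in Akita vs WT (−0.89) and 0.0811 for Homer1 in Akita + NACET vs WT + NACET (0.51).

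The 23 genes upstream are kinases and the transcription factors they act on. Their median was −0.11 in WT + NACET vs WT and −0.03 in Akita + NACET vs Akita. Rps6ka5, a kinase that phosphorylates CREB and histone H3, rose in Akita + NACET vs WT + NACET (0.51, edgeR adjusted p = 0.0104). In Akita vs WT 4 of 23 rose, where 7.64% of all genes were called, with Atf1 (0.60, 0.0252), Rps6ka2 (0.38, 0.0309) and Mef2c (0.47, 0.0365) ahead. Creb1 had a log2 fold change of −0.03 in WT + NACET vs WT and 0.14 in Akita vs WT, and Srf −0.13 and 0.03, with adjusted p of at least 0.499. Of 10 dimerisation partners and cofactors, Atf2 rose in Akita vs WT (0.28, 0.0406) and Atf4 in Akita + NACET vs WT + NACET (0.57, 0.0249). Over all genes 7.64% and 13.3% were called in these comparisons.

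Atf3 is a stress-responsive factor, and genes of 2 stress responses were followed as separate lists that hold none of the members. Between the treated genotypes, Trib3 (0.96, edgeR adjusted p = 0.00385) and Atf4 (0.57, 0.0249) of the 12 integrated stress response genes rose and Phgdh (−0.92, 0.0329), a serine synthesis enzyme, fell. Of 10 heat shock genes, Hspa1b (0.99, 0.00416) and Hspa1a (0.65, 0.0131) rose there, where 13.3% of all genes were called in either direction. The heat shock list as a whole did not shift there, with a median of −0.01 and 5 of 10 fold changes above 0. For the integrated stress response the median was 0.14, with 8 of 12 above 0. In Akita + NACET vs Akita, Hsp90aa1 (−0.53, 0.0374) and Hspa4l (−0.41, 0.0463) fell, where 9.65% of all genes were called. Vldlr (0.42, 0.0482) was the 1 stress response gene that rose in Akita vs WT by edgeR, where 7.64% of all genes were called. In WT + NACET vs WT the medians were −0.27 for the integrated stress response and −0.18 for heat shock.

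Genes of the circadian clock moved with the calls in Akita + NACET vs WT + NACET. Of 15 clock genes 8 rose and 0 fell, where 13.3% of all genes were called, led by Cry2 (0.43, edgeR adjusted p = 0.00124), Tef (0.58, 0.00156) and Cry1 (0.51, 0.00202), and all 15 fold changes were above 0 with a median of 0.40. Per1 was at 18.4 ± 3.7 CPM in WT + NACET and 32.9 ± 6.6 in Akita + NACET, and Per2 at 8.94 ± 2.26 and 16.2 ± 2.5 (SD). In WT + NACET vs WT their median was −0.26, and Per1 was at −0.55 with an edgeR adjusted p of 0.127. In Akita vs WT Cry1 rose (0.46, 0.0263), and in Akita + NACET vs Akita Tef (0.39, 0.0351) and Per3 (0.75, 0.0489) rose. The interaction was called for 8 of the 15 clock genes, all positive, where 20.3% of all genes were called. The part of the clock genes' difference in the result was not tested.

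Markers of cell types moved between the same groups, where 13.3% of all genes were called. In Akita + NACET vs WT + NACET 3 of 4 red cell genes were higher (their sum ran from 31.8 to 87.8 CPM against 18.4 to 50.7), 3 of 5 microglial genes were lower (17.7 to 29.0 against 32.7 to 46.4), 3 of 5 cone genes were lower (1866 to 2395 against 2510 to 3801) and Gfap, 1 of 2 astrocyte genes, was lower (the sum of both 26.2 to 89.0 against 129 to 270). Of the rod, Mueller glia, pericyte, bipolar and horizontal cell markers 1 each was called, Sag (−0.43), Glul (−0.45) and Rgs5 (−0.66) lower and Prkca (0.34) and Onecut1 (0.87) higher. In the whole retina, fewer cells of a type and less RNA per cell cannot be told apart. Of the leukocyte markers the T cell gene Cd3e was at 0 in all 18 libraries. Rod genes summed to between 81637 and 193450 CPM in every library, as the label retina asks, with 2 of 5 higher in Akita vs WT and 3 of 5 lower in Akita + NACET vs Akita. In WT + NACET vs WT Gfap was at 1.83 on the log2 scale with an edgeR adjusted p of 0.0539. The part of these markers in the results was not tested.

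The WT + NACET libraries also stood apart in a gene outside these lists, chosen after its values were seen. Acp1, a phosphatase gene, was at 2.05 to 3.14 CPM in these 6 libraries and at 26.7 to 40.1 CPM in the other 12. The Akita + NACET libraries were in the upper range, so that the low level did not go with the compound in both genotypes. For the comparisons that use WT + NACET, treatment and any other difference of those mice cannot be told apart. Lens genes summed to 14963 CPM in WT + NACET replicate 5 and 1291 CPM in Akita replicate 2. They summed to 639 CPM in Akita + NACET replicate 3 and 165 CPM in Akita + NACET replicate 5, against 1.08 to 8.79 CPM in WT. Without WT + NACET replicate 5 the call for Npas4 in Akita + NACET vs WT + NACET was lost (edgeR adjusted p = 0.0535), as was that for Nr4a1 (0.0606), while those for Ier2 and Atf3 held. The log2 fold change was then 1.09 for Npas4 and 1.37 for Nr4a1, against 1.16 and 1.32 with all libraries. Nr4a1 also lost its call without any 1 of WT + NACET replicates 1 to 4. Npas4 also lost it without WT + NACET replicate 3 (edgeR adjusted p = 0.0512), where lens genes summed to 0.911 CPM. The part of lens RNA in these losses was not tested.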

How the data were processed

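Retinal RNA of 18 libraries was measured by poly(A) sequencing, grouped by the sample labels. Per the study's methods, the authors aligned single-end reads to mm9 with TopHat2 2.1.0 and deposited raw counts per gene made with HTSeq 0.11.2, without regard to strand and not normalized, in 1 file per library. The annotation release is not given in the sources used here. Each file held 35006 gene names. The entry without a name (0.00544% of counts on average) was left out, as were 206 ribosomal RNA genes (0.977%), leaving 11495596 to 17814479 counts per library. Counting error weighs most on low genes.

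Counts were tested by quasi-likelihood with glmQLFit and glmQLFTest (edgeR 4.0.16, R 4.3.3), after TMM scaling, with the default filter (minimum count 10, minimum total 15; 16183 genes), robust dispersion and all 4 groups in 1 fit. P-values were adjusted by Benjamini and Hochberg over all tested genes, and a gene was called where the adjusted value was 0.05 or less. The study used DESeq2, which served as an alternative (version 1.42.0). Standard errors were derived from the F statistic. Log2 CPM used a prior count of 2. Coordinates are from the GENCODE annotation on mm9, and 96.1% of the gene names were found there. No 2 replicates agreed within sampling noise (chi-square per gene of counts 4.82 to 55.0). The fit was tested on simulated data.

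The members and the gene lists were chosen with earlier results of these data known. The text names all 10 members. Of each other list, cell type markers aside, and each comparison of 2 groups it names up to 3 called genes per direction with the smallest adjusted p. In the interaction 20.3% of all genes were called. There 5 of 20 transcription factors were called higher and 1 lower, and 3 of 19 feedback inhibitors higher. Of 18 effectors 5 were higher, and of 23 upstream genes 2 were higher and 1 lower. Of 10 partners 3 were higher, and of 12 integrated stress response genes 1 was higher. Most of these genes are not named. The text also names the 10 genes most like the members' mean profile. Alternatives were DESeq2 size factors, all genes unfiltered or those with a mean count of 50 or more, DESeq2 with all or only the compared groups, edgeR with only the compared groups, a replicate block, the share of reads outside exons as covariate, retention of the ribosomal RNA genes, and leaving out single libraries.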

Additional observations from a re-analysis of the deposited data

Results flagged for a closer look

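Among 30 combinations of a gene with a group of 4 to 6 libraries, 2 had a library far from the rest of its group by Dixon's criterion, which chance meets in about 1 in 20. Ier2 stood at 72.9 CPM in Akita replicate 4, with the next library of the group at 45.6 CPM. Atf3 stood at 29.9 CPM in Akita replicate 3, with the next at 20.3 CPM.

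The effect of NACET differed between genotypes for 2 of the 10 genes in the interaction test of edgeR, a share near the 20.3% of all tested genes called, so that the count says nothing particular about these genes. For Npas4 the effect in Akita minus that in WT was 1.57 on the log2 scale (adjusted p = 0.0361). For Atf3 it was 1.35 (adjusted p = 0.0279). With the share outside exons as covariate neither call held (edgeR adjusted p = 0.742 for Npas4 and 0.398 for Atf3). The call for Npas4 was lost without any 1 of 9 libraries and that for Atf3 without any 1 of 4. Treatment and any other difference of the WT + NACET mice cannot be told apart here.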

How the results depend on the processing

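Over all genes and comparisons of the members, 1573 of the alternative values kept their side of the threshold, 32 passed it where the value above did not and 43 no longer passed it. Of the 1573, 59 changed sign, all of them values that passed in neither fit. In WT + NACET vs WT, where 0 of 10 genes were called, the count was 1 with a mean count of at least 50 (302 genes called in all, against 240), 2 with DESeq2 on all groups (717), 7 with DESeq2 (943) and 5 with edgeR (269) on the 2 groups alone, 1 with the replicate block (190) and 1 without Akita replicates 1 and 2 (173). In Akita + NACET vs WT + NACET it went from 4 (2148 genes in all) to 1 (194) with the share outside exons as covariate, 3 without a filter (1610), with a mean count of at least 50 (2194) and with the replicate block (1363), 5 with edgeR (2267) and 6 with DESeq2 (3032) on the 2 groups alone. In the interaction it went from 2 (3289 in all) to 1 without a filter (2550), 1 with a mean count of at least 50 (3104), 1 with the replicate block (2656), 0 with the covariate (17) and 3 without Akita replicates 1 and 2 (2837). The fits on compared groups alone use fewer libraries. For the other settings the cause was not tested.

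Leaving out 1 library at a time gave 0 to 1 called genes in Akita vs WT, 0 to 2 in Akita + NACET vs Akita, 0 to 2 in WT + NACET vs WT, 1 to 5 in Akita + NACET vs WT + NACET, 0 in Akita + NACET vs WT and 0 to 2 in the interaction. Over all genes the counts with 1 library left out ran from 0 to 1612 in Akita vs WT, 1 to 1754 in Akita + NACET vs Akita, 72 to 461 in WT + NACET vs WT, 860 to 2710 in Akita + NACET vs WT + NACET and 1699 to 3524 in the interaction. Nr4a1 lost its call in Akita + NACET vs WT + NACET without Akita + NACET replicate 2 or 5 or any of WT + NACET replicates 1 to 5.

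The replicate numbers did not pair the libraries. Same-numbered libraries had correlations of their deviations from −0.33 to 0.34 over 22 pairs, of which 4 exceeded 0.1, and 2 of 18 libraries correlated best with their own number. With the replicate block, Ier2 was called in WT + NACET vs WT (adjusted p = 0.0336) and Npas4 was not in Akita + NACET vs WT + NACET (0.0545). The interaction had no fit on compared groups alone, since it needs all 4, and Npas4 was not in the fit with a mean count of at least 50.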
